A study of Mus musculus with 2 samples.

Results

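Transcripts of 10 genes, *Cthrc1*, *Postn*, *Tnc*, *Lrrc15*, *Fap*, *Tnfrsf12a*, *Has1*, *Hmga2*, *Fosl1* and *Serpinb2*, were followed cell by cell in lineage-marked stromal cells of mouse skeletal muscle. They are 10 of the 28001 features counted in each library, and were found by gene symbol. They were listed together as genes of activated fibroblasts with measured values of these same libraries in view, so the levels and folds below describe the members and carry no test. That name is used as a label, since these values cannot test it, and the members did not share 1 pattern. Among gated classes of at least 20 cells, 7 members, *Hmga2* among them through 1 cell, were highest in cycling cells of one library. *Fap* and *Has1* were highest in Dpt+ Pdgfra+ cells among these classes in both and differed less than 2-fold between the libraries. The share of all features highest in a given class was not counted.

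Fibroblasts of an intact muscle are largely quiescent cells that keep the matrix around fibers, vessels and nerves. After injury or under transforming growth factor beta (TGF-beta) they make fibrillar collagens together with matricellular proteins, which are secreted proteins that alter how cells hold the matrix. *Cthrc1* encodes a secreted protein with collagen-like repeats, *Postn* periostin and *Tnc* tenascin-C. At the cell surface, *Lrrc15* encodes a leucine-rich repeat protein, *Fap* a serine protease that cleaves gelatin, and *Tnfrsf12a* the receptor Fn14 for the cytokine TWEAK, while *Has1* encodes an enzyme that extrudes hyaluronan. *Hmga2* encodes a chromatin protein best known from embryonic tissue, *Fosl1* the Fos family member Fra-1, which pairs with Jun proteins as the factor AP-1, and *Serpinb2* an inhibitor of the urokinase plasminogen activator.

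The study asked what becomes of mesenchymal progenitors marked by *Hic1*, and used single-cell RNA-seq (10x Chromium, 3' counts) of tdTomato+ cells from adult muscle. The mice were C57BL/6J with CreERT2 on both *Hic1* alleles and a Cre-dependent tdTomato reporter on both Rosa26 alleles, so a cell is marked if it or an ancestor expressed *Hic1* while tamoxifen (TAM) was present. One library, E10-P56, was marked by 1 gavage of 7.5 mg TAM to the dam at embryonic day 10 and collected at postnatal day 56. The other, called the adult pulse here, was marked by 5 daily doses of 2.5 mg TAM starting at 8 weeks of age. The labels put its collection at postnatal day 56 too, no later than the start of its TAM. The study describes a later collection for its adult-pulsed cells, so the age of this library at collection is uncertain. Both libraries share genotype, strain, tissue and reporter, and neither is a wild-type control. The methods describe tibialis anterior muscles pooled from both hindlimbs, enzymatic digestion and serial sorting for tdTomato with blood, immune and endothelial cells gated out. For tracing from the embryo into adulthood they add progesterone to the TAM, delivery by caesarean section and fostering with a CD1 litter. With 1 library per condition there is no measure of the spread between animals. The marking time, these added treatments, the age at collection, the library and the Cell Ranger version cannot be told apart.

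UMIs, transcript molecules counted once, totalled 67460919 in E10-P56 (8236 barcodes) and 69153173 in the adult pulse (9195 barcodes). Barcodes under 1500 UMIs or over 10% mitochondrial UMIs were set aside, which left 6087 and 8567 cells, with medians of 7648 and 7344 UMIs. A tdTomato UMI was found in 95.9% and 99.1% of them. Cells were grouped by marker gates that held none of the members. Cells with a UMI of both *Dpt* and *Pdgfra* and outside every other gate were called Dpt+ Pdgfra+, 3215 for E10-P56 and 5931 for the adult pulse. Cells with at least 3 markers of division were called cycling, 148 and 30, and gates of at least 3 markers gave tenocyte-like cells, 218 and 521, pericyte-like cells, 635 and 497, and smaller classes. Cells that passed both the *Dpt* and *Pdgfra* gate and another gate, 525 and 415, and cells of no gate, 740 and 991, were kept apart. The Dpt+ Pdgfra+ cells held *Cd34* at 829 and 1022 CPM (counts scaled to 1000000 UMIs), *Pi16* at 1245 and 1394 CPM and *Col15a1* at 322 and 370 CPM. Such gates bound a range of cells rather than a type, doublets were not removed, and 11 barcodes were shared by kept cells of both libraries, none with identical counts.

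Upstream sequence was read for the 7 members found in the RefSeq promoter table (all but *Cthrc1*, *Fap* and *Fosl1*), as the 250 bases before each start site on GRCm38.p6. The windows of *Lrrc15*, *Serpinb2* and *Tnc* are printed, because these 3 members differed most between cycling and Dpt+ Pdgfra+ cells of E10-P56 and each window holds a TATA box or the element of AP-1, the factor of which the *Fosl1* protein is part. In each, 5' to 3' on the gene's own strand, capitals mark either TGANTCA, the AP-1 element, or TATAAA, the TATA box.

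*Lrrc15*, chr16:30283255-30283504, minus strand: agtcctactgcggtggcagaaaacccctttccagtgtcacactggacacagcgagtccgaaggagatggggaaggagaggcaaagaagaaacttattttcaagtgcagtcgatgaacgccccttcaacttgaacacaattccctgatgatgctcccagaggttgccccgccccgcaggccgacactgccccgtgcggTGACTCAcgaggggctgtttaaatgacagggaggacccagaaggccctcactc

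*Serpinb2*, chr1:107511173-107511422, plus strand: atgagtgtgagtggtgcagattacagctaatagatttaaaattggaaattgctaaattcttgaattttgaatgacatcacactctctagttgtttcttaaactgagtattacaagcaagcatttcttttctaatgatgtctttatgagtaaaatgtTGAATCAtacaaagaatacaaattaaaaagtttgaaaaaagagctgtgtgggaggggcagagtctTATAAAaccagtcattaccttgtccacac

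*Tnc*, chr4:64047016-64047265, minus strand: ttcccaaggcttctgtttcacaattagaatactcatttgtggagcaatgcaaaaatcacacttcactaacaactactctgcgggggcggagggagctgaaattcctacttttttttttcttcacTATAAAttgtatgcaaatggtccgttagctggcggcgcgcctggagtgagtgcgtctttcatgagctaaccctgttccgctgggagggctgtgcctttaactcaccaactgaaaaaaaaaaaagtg

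The *Lrrc15* window held TGACTCA 53 to 47 bases before the start site. The *Serpinb2* window held TGAATCA 94 to 88 bases and TATAAA 29 to 24 bases before it, and the *Tnc* window TATAAA 126 to 121 bases before it. Among 32851 promoters of the table, taken over the same 250 bases before the start, 6.75% held TGANTCA on either strand and 7.59% held TATAAA on the written strand. *Postn* also held a TATAAA, and *Has1* the cyclic AMP response element TGACGTCA, which 1.55% of windows held. A match describes the letters of the window, not occupancy.

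In Dpt+ Pdgfra+ cells, 8 of the 10 members were at least 2-fold higher in E10-P56 than in the adult pulse and 0 were lower by that much. Of the 14382 features with enough UMIs to compare, 6.30% were at least 2-fold higher and 7.40% at least 2-fold lower. Since the list was chosen with values of these libraries in view, nothing is read from the difference between its count and those shares. Shares of cells are given after thinning each cell to 1500 UMIs, and bracketed ranges are 95% intervals that cover counting error only.

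Among the secreted matrix proteins, *Cthrc1* stood at 262 CPM (256 to 267, 9359 UMIs) in Dpt+ Pdgfra+ cells of E10-P56 and at 5.85 CPM (298 UMIs) in those of the adult pulse, a ratio of 44.7 (39.8 to 50.4). At equal depth a *Cthrc1* UMI was seen in 15.1% of these cells for E10-P56 and 0.354% for the adult pulse, against 36.4% and 2.16% before thinning. *Postn* was the most abundant member in E10-P56 and came after *Fap* in the adult pulse, at 568 CPM (20304 UMIs) and 156 CPM (7927 UMIs), a ratio of 3.65 (3.55 to 3.74), with shares of 35% and 9.44%. *Postn* was thus never a gene of one library, whereas *Cthrc1* was rare in the adult pulse. *Tnc* stood at 46.0 CPM (1644 UMIs) and 4.83 CPM (246 UMIs), a ratio of 9.52 (8.32 to 10.9), with shares of 1.99% and 0.337%.

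At the cell surface, *Lrrc15* stood at 8.50 CPM (304 UMIs) in E10-P56 and 0.354 CPM (18 UMIs) in the adult pulse, a ratio of 24.1 (15 to 41.1). *Tnfrsf12a* stood at 85.6 CPM (3060 UMIs) and 27.6 CPM (1405 UMIs), a ratio of 3.10 (2.91 to 3.31). *Fap* took the other direction, at 122 CPM (4372 UMIs) and 179 CPM (9100 UMIs), a ratio of 0.684 (0.660 to 0.709). Despite the name of its protein, *Fap* was found in most Dpt+ Pdgfra+ cells of both libraries, in 59.7% of them for E10-P56 and 65.3% for the adult pulse before thinning. *Has1*, the hyaluronan synthase, also differed little, at 97.8 CPM (3497 UMIs) and 69.5 CPM (3539 UMIs), a ratio of 1.41 (1.34 to 1.47). *Fap* and *Has1* were the 2 members short of 2-fold.

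The nuclear members were scarce in both libraries and nearly missing from the adult pulse. *Hmga2* stood at 13.1 CPM (469 UMIs) in E10-P56 and 1.20 CPM (61 UMIs) in the adult pulse, a ratio of 10.9 (8.37 to 14.5). *Fosl1* stood at 27.2 CPM (972 UMIs) and 0.648 CPM (33 UMIs), a ratio of 41.9 (29.7 to 61.3). *Serpinb2*, the protease inhibitor, gave 1920 UMIs (53.7 CPM) in 3.67% of the Dpt+ Pdgfra+ cells of E10-P56 and 1 UMI (0.0196 CPM) in the adult pulse. Its ratio of 2734 has a counting interval of 490.1 to 108050, since it rests on that 1 UMI. Nearest to 2-fold lay *Tnfrsf12a* (3.10) on the inside, and *Fap* (0.684) and *Has1* (1.41) on the outside.

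**Figure D1:**
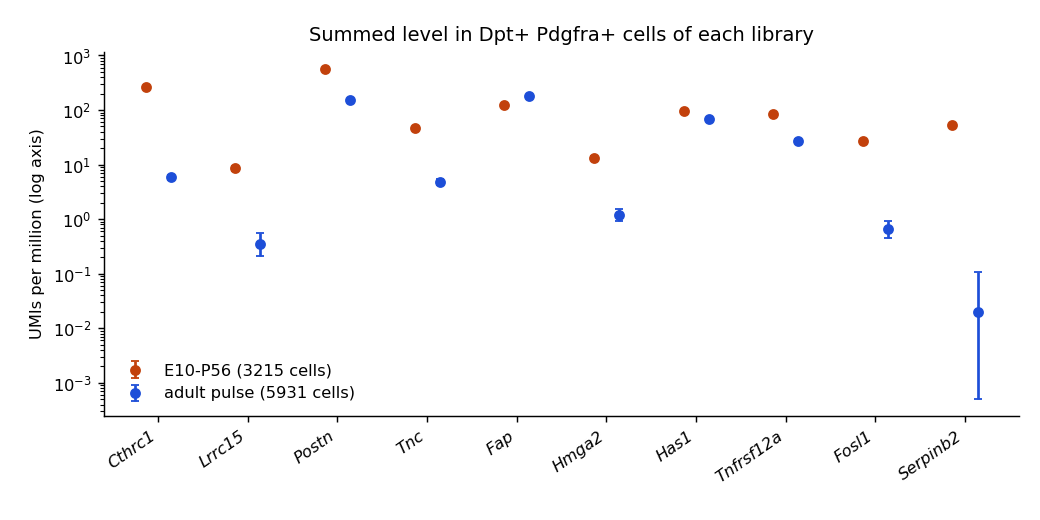
Level of each member in Dpt+ Pdgfra+ cells in CPM (log axis), with exact 95% Poisson intervals, for E10-P56 (3215 cells) and the adult pulse (5931 cells). For 8 members the E10-P56 value lies 2-fold or more above that of the adult pulse, for Has1 it lies 1.41-fold above, and for Fap it lies below, at 122 against 179 CPM.

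Free RNA can put a UMI into a cell that does not express the gene, so each share was set beside that of Schwann-like and endothelial-like cells, pooled, 127 in E10-P56 (median 5335 UMIs) and 63 in the adult pulse (3162), where the Dpt+ Pdgfra+ cells had medians of 9315 and 7998 UMIs. At 1500 UMIs these held *Postn* in 14.2% and 7.94% of cells, *Fap* in 5.51% and 3.17%, *Cthrc1* in 3.15% and 0%, *Tnfrsf12a* in 3.15% and 3.17%, and *Tnc* in 1.57% and 0%. *Hmga2* was seen in 0.787% and 1.59% and *Has1* in 0.787% and 0%, while *Lrrc15*, *Fosl1* and *Serpinb2* were seen in 0 of the 127 and 0 of the 63 cells, which allows shares of up to 2.36% and 4.76%. In E10-P56 the Dpt+ Pdgfra+ shares of *Cthrc1* (15.1%), *Postn* (35%), *Fap* (17.2%), *Has1* (8.18%) and *Tnfrsf12a* (8.02%) lay above the counting intervals of these cells, and in the adult pulse that of *Fap* (22.6%) did. The share of *Has1* in the adult pulse (5.24%) lay above the limit of 4.76% that 0 of 63 cells allows and below their exact upper bound of 5.69%. The other shares, among them those of *Tnc* in E10-P56 and of *Postn* (9.44%) and *Tnfrsf12a* (3.24%) in the adult pulse, lay within the interval or limit and were not told from background at this depth, and that of *Hmga2* in the adult pulse (0.270%) was below that of the comparison cells. Summed over cells, *Tnc* stood at 46.0 against 9.92 CPM (4.28 to 19.6) in E10-P56, *Hmga2* at 13.1, *Lrrc15* at 8.50 and *Serpinb2* at 53.7 CPM against 1.24 CPM each (up to 6.91), and *Fosl1* had 0 UMIs in the comparison cells. In the adult pulse the summed levels of *Fap*, *Has1* and *Postn* lay above those intervals, *Postn* at 156 against 52.0 CPM (28.4 to 87.3).

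UMIs of the rarer members were concentrated in few cells. In Dpt+ Pdgfra+ cells of E10-P56, 50% of the *Serpinb2* UMIs lay in 4 cells, and one cell held 577 of the 1920 (30.1%), leaving 37.6 CPM without it. For *Lrrc15* that number was 11 cells, for *Tnc* 13, for *Hmga2* 18 and for *Fosl1* 51. *Cthrc1* and *Tnfrsf12a* needed 105 cells each, *Has1* 103, *Postn* 241 and *Fap* 463. Summed levels of *Serpinb2*, *Lrrc15* and *Tnc* thus describe a small subset of cells, and those of *Fap* and *Postn* a broad population. In the adult pulse, 971 cells held 50% of the *Fap* UMIs, 131 those of *Postn* and 10 those of *Cthrc1*.

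Cycling cells held *Cthrc1*, *Postn*, *Tnc* and *Lrrc15* at higher levels than Dpt+ Pdgfra+ cells in both libraries, and *Fap* and *Has1* at lower levels. In E10-P56, 5 of 10 members were at least 2-fold higher and 2 at least 2-fold lower in cycling cells, where 10.1% and 17.1% of 13337 features were. In the adult pulse, 6 of 9 members were higher, *Fosl1* with 1 UMI in cycling cells among them, and 2 lower, where 15.1% and 10.1% of 13698 features were. *Hmga2* had 0 UMIs in the 30 cycling cells, which sets no lower bound against 1.20 CPM. *Tnc* reached 966 CPM in cycling cells of E10-P56, a ratio of 21 (19.9 to 22.2), and 295 CPM in the adult pulse, a ratio of 61.1 (49.7 to 74.9). *Lrrc15* reached 119.6 CPM, a ratio of 14.1 (12.2 to 16.2), and 22.6 CPM (12 UMIs), a ratio of 63.8 (28.0 to 140). *Cthrc1* reached 1064 CPM, a ratio of 4.07 (3.93 to 4.21), and 367 CPM, a ratio of 62.6 (52.0 to 75.3). *Postn* reached 1255 and 1669 CPM, ratios of 2.21 (2.15 to 2.27) and 10.7 (9.99 to 11.5). These levels rested on few cells in the adult pulse. One cycling cell held 10 of the 12 *Lrrc15* UMIs, which left 4.19 CPM without it. *Cthrc1* was seen in 8 of the 30 cells, with 50% of its UMIs in 2 cells and 251 CPM without the highest, and 50% of the *Tnc* UMIs lay in 3 cells, with 222 CPM without the highest.

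*Serpinb2* reached 479.8 CPM in cycling cells of E10-P56, a ratio of 8.93 (8.41 to 9.49), and was seen in 0 of the 30 cycling cells of the adult pulse, which allows a share of up to 10%. *Tnfrsf12a* was 1.71 (1.58 to 1.86) times its Dpt+ Pdgfra+ level in cycling cells of E10-P56 and 3.95 (2.98 to 5.14) times in the adult pulse. The nuclear members differed less, with ratios of 1.71 (1.38 to 2.11) for *Hmga2* and 1.5 (1.28 to 1.75) for *Fosl1* in E10-P56. One cell held 47 of the 111 *Hmga2* UMIs in cycling cells (42.3%), and without it the level was 13.1 CPM, as in Dpt+ Pdgfra+ cells. *Fap* and *Has1* were lower in cycling cells of both libraries, with ratios of 0.375 (0.327 to 0.429) and 0.419 (0.362 to 0.483) in E10-P56 and 0.347 (0.239 to 0.488) and 0.243 (0.111 to 0.462) in the adult pulse. At equal depth, UMIs of *Cthrc1* were seen in 55.4% of cycling cells of E10-P56, of *Postn* in 70.3%, of *Tnc* in 36.5%, of *Serpinb2* in 13.5% and of *Lrrc15* in 11.5%.

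Depth moved with these ratios. The cycling cells had medians of 28409.5 UMIs for E10-P56 and 15058 for the adult pulse, and 107 of the 148 and 18 of the 30 also carried *Dpt* and *Pdgfra*. With the *Dpt* and *Pdgfra* gate applied at equal depth, 8 of 10 members were at least 2-fold higher in cycling cells of E10-P56, *Hmga2* at 2.26, *Tnfrsf12a* at 2.94 and *Fosl1* at 3.05 among them, and *Has1* stood at 0.616. Markers of other cell types also stood higher in cycling cells, *Rgs5* of pericytes at 448 against 13.2 CPM in E10-P56, and the tendon markers *Scx* at 242 against 0.864 CPM and *Tnmd* at 596 against 14 CPM in the adult pulse. In E10-P56 the 107 with *Dpt* and *Pdgfra* held *Rgs5* at 27.4 CPM, and the other 41 at 3277 CPM. *Cthrc1* stood at 1192 and 206 CPM in these sets, *Tnc* at 942 and 1127, *Lrrc15* at 125 and 85.8, and *Serpinb2* at 498 and 359. In the adult pulse the 18 held *Scx* at 64.3 and *Tnmd* at 257 CPM, the other 12 at 660 and 1390 CPM. The part of depth, of doublets or of such cells in the cycling levels was not tested beyond these values.

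**Figure D2:**
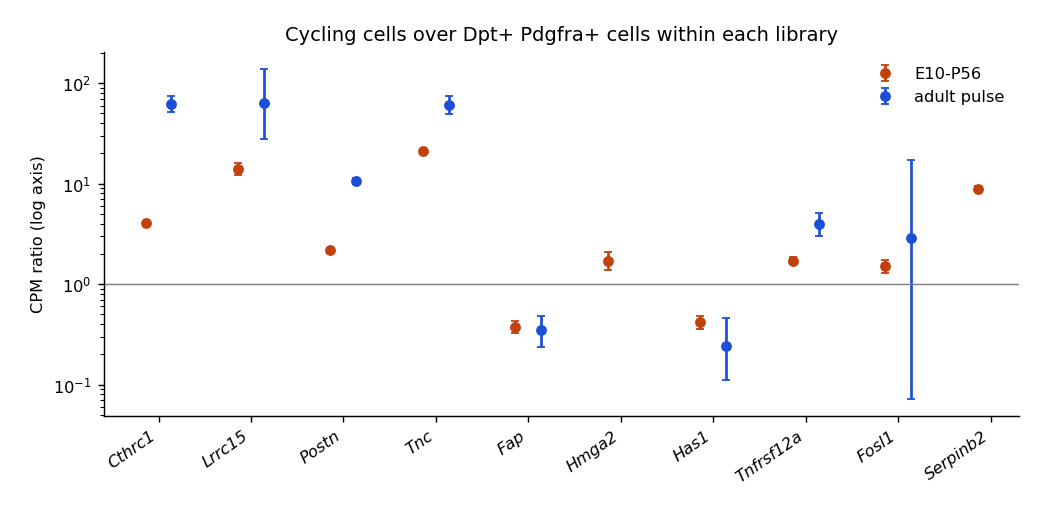
Ratio of each member's level in cycling cells to that in Dpt+ Pdgfra+ cells (log axis), with exact 95% intervals, in each library. Tnc, Lrrc15, Cthrc1 and Postn lie above 2-fold in both libraries, and Fap and Has1 below 1 in both. Hmga2 and Serpinb2 had 0 UMIs in cycling cells of the adult pulse and have no point there.

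The class with the highest level differed between members. The share of all features highest in each class was not counted, so these counts describe the members only. In E10-P56, 7 members were highest in cycling cells (*Cthrc1*, *Lrrc15*, *Tnc*, *Hmga2*, *Tnfrsf12a*, *Fosl1* and *Serpinb2*), *Postn* in tenocyte-like cells, and *Fap* and *Has1* in Dpt+ Pdgfra+ cells, among gated classes of at least 20 cells. *Hmga2* owed its place to 1 cell, since it stood at 13.1 CPM without it and at 15.7 CPM (23 UMIs in 4 cells) in smooth muscle-like cells, and a limit of 5% mitochondrial UMIs changed the highest class of 3 of the 10 members. In the adult pulse, *Fap* and *Has1* were again highest in Dpt+ Pdgfra+ cells, *Tnc* in tenocyte-like cells, and *Cthrc1*, *Lrrc15*, *Postn* and *Tnfrsf12a* in cycling cells. The highest values of *Fosl1* and *Hmga2* in the adult pulse rested on 1 UMI each. The protease and the hyaluronan synthase were thus the members with a Dpt+ Pdgfra+ maximum in each library among these classes. Osteochondral-like cells, too few for this ranking, passed it for some members. In the 10 of the adult pulse *Fap* stood at 307 CPM (223 to 412, 44 UMIs) and *Cthrc1* at 774 CPM (111 UMIs). *Postn* stood at 2293 CPM (329 UMIs) and *Lrrc15* at 188 CPM (27 UMIs) there. In the 8 of E10-P56, *Tnfrsf12a* stood at 348 CPM (220 to 522). *Postn* stood at 1587 CPM (1298 to 1921) in them, not told apart from tenocyte-like cells. No other member stood above its highest ranked class in these cells. *Has1* stood slightly higher still in cells of no gate, at 110.1 and 74.5 CPM, and *Lrrc15* at 107.5 CPM (10 UMIs) in the 13 smooth muscle-like cells of the adult pulse.

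Tendon cells make periostin and tenascin-C in healthy tissue. *Postn* stood at 1488 CPM in tenocyte-like cells of E10-P56 and 1256 CPM in those of the adult pulse, and *Tnc* at 385 and 601 CPM. *Cthrc1* stood at 169.6 and 118 CPM there, so the adult pulse did hold *Cthrc1*, and 34.1% of all its *Cthrc1* UMIs and 68.1% of its *Tnc* UMIs were in tenocyte-like cells, against 0.885% and 4.21% in E10-P56. Of 6 members that could be compared in tenocyte-like cells, 1 was at least 2-fold higher in E10-P56, *Has1* at 2.40, where 10.3% of features were, and 0 were lower, where 4.67% were. The *Has1* ratio rests on 15 against 20 UMIs (1.14 to 4.94). One cell held 5 of the 15, and without it the level fell from 13.0 to 8.84 CPM. The libraries thus differed by more than 2-fold in *Cthrc1*, *Postn* and *Tnc* in Dpt+ Pdgfra+ cells and by less than 2-fold in tenocyte-like cells. The ratio of *Tnc* in them was 0.641.

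Pericyte-like cells showed 3 of 7 members at least 2-fold higher in E10-P56 than in the adult pulse, where 4.92% of features were, and 0 lower, where 3.96% were. These were *Cthrc1* (61.0 against 3.20 CPM, a ratio of 19.1), *Postn* (2.34) and *Tnc* (2.19). One cell held 78 of the 192 *Cthrc1* UMIs in E10-P56 (40.6%), which left 36.6 CPM without it, and the adult pulse had 6 UMIs. At 1500 UMIs the E10-P56 shares of *Cthrc1* (5.04%) and *Tnc* (2.68%) in pericyte-like cells lay within the intervals of the Schwann-like and endothelial-like cells and were not told from background. In perineurial-like cells 2 of 4 were higher, where 13.8% of features were, and 0 lower, where 3.71% were. These were *Cthrc1* with 1 UMI in the adult pulse and *Fap* with 4, at 2.25 (0.810 to 8.67), and so rest on very few counts. Smooth muscle-like cells of E10-P56 (169 cells) held *Tnc* at 193 CPM, *Tnfrsf12a* at 96 CPM, *Lrrc15* at 51.1 CPM and *Serpinb2* at 32 CPM. Of *Tnc*, *Lrrc15* and *Serpinb2*, 50% of these UMIs lay in 2 cells each, and *Lrrc15* was seen in 10 of the 169.

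**Figure D3:**
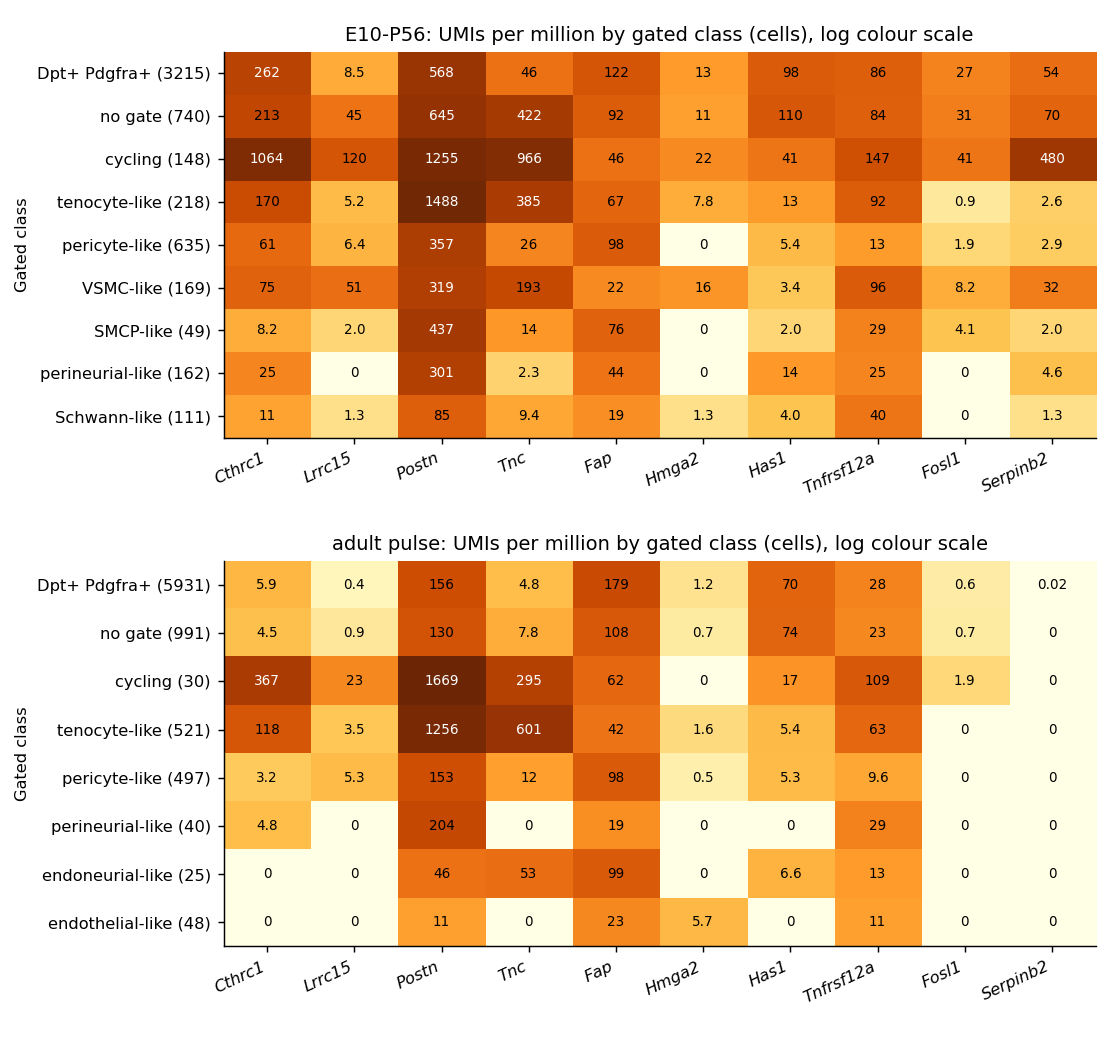
Levels of the 10 members (columns) in each gated class (rows, with the number of cells) in both libraries, as CPM on a log color scale with the value printed. Among the classes shown, cycling cells of E10-P56 lead for 7 members, Hmga2 among them through 1 cell. The share of all features they lead for was not counted. In both libraries tenocyte-like cells hold Postn at 1256 CPM or more and Tnc at 385 CPM or more.

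Cells of no gate in E10-P56 held *Tnc* at 422 CPM, 9.17 times the Dpt+ Pdgfra+ level, and *Lrrc15* at 44.7 CPM, 5.26 times. These 2 of 10 were at least 2-fold higher, where 4.67% of features were, and 0 were 2-fold lower, where 2.28% were. One cell held 496 of the 1650 *Tnc* UMIs (30.1%), which left 299.7 CPM without it. In the adult pulse 1 of 9 was higher, *Lrrc15* with 5 UMIs at 2.64 (0.766 to 7.38), where 3.95% of features were, and 0 lower, where 2.46% were. The summed level of *Tnc* was also higher where UMIs of the gate's own genes were missing. Among cells of E10-P56 with at least 3000 UMIs outside every other gate, it stood at 46.3 CPM in the 2990 with both *Dpt* and *Pdgfra*, 314 CPM in the 323 with *Dpt* alone and 636 CPM in the 95 with *Pdgfra* alone, and *Lrrc15* at 8.6, 28.5 and 137 CPM. The cell with 496 *Tnc* UMIs was one with *Dpt* alone, a group that held 806 in all. The 19 cells with neither gene held *Tnc* at 4438 CPM (427 UMIs) and *Lrrc15* at 187 CPM (18 UMIs). Median depths of these groups, in the same order, were 9880, 5969, 4405 and 4473 UMIs, and the part of depth was not tested. In such groups of the adult pulse *Tnc* stood at 4.86, 5.03, 10.8 and 35.9 CPM, the last on 8 UMIs. After thinning to 3000 UMIs, *Tnc* was seen in 3.34% of cells with both genes and 4.64% (2.62 to 7.54) with *Dpt* alone. With *Pdgfra* alone the share was 13.7% (7.49 to 22.3), and with neither gene it was 31.6% (12.6 to 56.6). Cells rich in *Tnc* and *Lrrc15* were thus partly outside the Dpt+ Pdgfra+ class.

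Cells with 3 or more members made up a larger share in E10-P56 than in the adult pulse. Most members were also seen in more cells of E10-P56 when taken singly. The share that these separate frequencies would give was not computed, so joint expression is not separated from level here. After thinning to 3000 UMIs, 432 of 2990 Dpt+ Pdgfra+ cells of E10-P56 (14.4%, 13.2 to 15.8) held 3 or more members, and 90 of 5727 in the adult pulse (1.57%, 1.27 to 1.93). The thinning left out 225 and 204 shallower cells. No member was seen in 671 and 2529 cells, and at most 7 and 5 members were seen in a cell. In cycling cells the shares were 56.2% (82 of 146) and 28.6% (8 of 28), and in tenocyte-like cells 30.9% (46 of 149) and 12.4% (60 of 485). Schwann-like and endothelial-like cells gave 1.87% (2 of 107) and 0 of 34, which allows up to 8.82%, so the adult share in Dpt+ Pdgfra+ cells was not told from background.

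**Figure D4:**
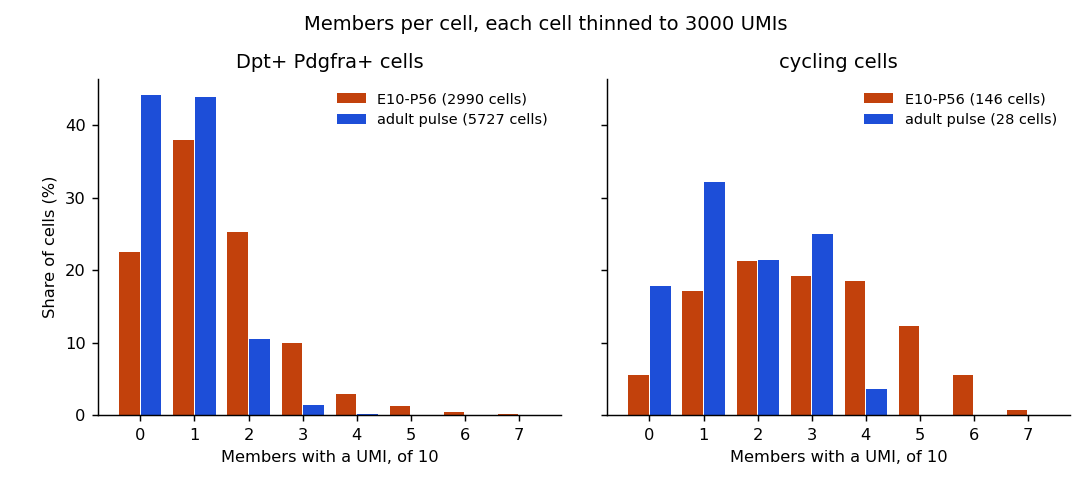
Share of cells (%) by the number of members with a UMI after thinning each cell to 3000 UMIs, for Dpt+ Pdgfra+ cells (left, 2990 and 5727 cells) and cycling cells (right, 146 and 28 cells) of E10-P56 and the adult pulse. Cells with 3 or more members make up 14.4% and 1.57% of Dpt+ Pdgfra+ cells and 56.2% and 28.6% of cycling cells.

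Pairs of members were compared with the number of cells that the product of their separate shares gives. No such count was made over pairs of other genes, so the counts below describe the members only. Fewer pairs reach a product of 1 cell where members are rarer. The ratio of cells seen to the product cannot exceed all cells divided by the cells with the commoner member. Pairs with a common member thus have little room to pass 2-fold. *Postn* was seen in 1462 of 2990 Dpt+ Pdgfra+ cells of E10-P56, and *Fap* in 2176 of 5727 of the adult pulse. Counts of pairs past 2-fold depend in part on how common each member was, and nothing is read from their difference between libraries. In Dpt+ Pdgfra+ cells of E10-P56, 16 of 41 pairs with a product of at least 1 cell were seen at 2-fold or more, and in the adult pulse 1 of 20, *Postn* with *Tnc* in 13 cells (2.53). The largest of these in E10-P56 was *Hmga2* with *Fosl1*, in 25 cells against 1.75, a ratio of 14.3 (9.25 to 21.1). *Fosl1* occurred with *Tnfrsf12a* in 73 cells against 14.1 (5.19), with *Has1* in 57 cells (4.02) and with *Serpinb2* in 16 cells (7.08). *Hmga2* occurred with *Tnfrsf12a* in 28 cells (4.52) and with *Has1* in 22 cells (3.52). Both nuclear members were thus seen with the TWEAK receptor and the hyaluronan synthase above the product in E10-P56. In the adult pulse this was not seen for *Hmga2*, which occurred with *Tnfrsf12a* in 2 cells (1.05) and with *Has1* in 1 cell (0.388). *Fosl1* was seen in 7 cells there, of which 4 held *Has1* against a product of 0.622 (6.43, 1.75 to 16.5). With *Tnfrsf12a* it shared 2 cells against 0.458 (4.36, 0.528 to 15.8). Both of these products were under 1 cell, too few to be counted among the 20.

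Another set of pairs joined matrix and surface members. *Cthrc1* occurred with *Lrrc15* in 23 cells (3.63) and with *Tnc* in 49 cells (2.24). *Lrrc15* and *Tnc* shared 18 cells, 62.1% of the 29 cells with *Lrrc15*, where the product gives 0.970, too few to be counted among the 41. Pairs across these sets passed 2-fold as well, so the sets were not separate. *Tnc* occurred with *Serpinb2* in 10 cells (4.82), with *Hmga2* in 5 (3.11) and with *Tnfrsf12a* in 26 (2.01). *Cthrc1* occurred with *Serpinb2* in 32 cells (2.36) and *Lrrc15* with *Tnfrsf12a* in 8 (2.14). *Fap* stood apart in E10-P56, with ratios from 0.346 (with *Hmga2*) to 1.06 over its pairs, 0.397 with *Fosl1* and 0.616 with *Has1*. In the adult pulse its pairs ran from 0.667 with *Has1* to 1.78 (1.15 to 2.63) with *Tnc*, and *Hmga2* stood at 1.36 (0.762 to 2.25). All pairs share the cells and the depth of 1 library, and the cells with 3 or more members had been deeper before thinning, with a median of 14873 UMIs against 8504 in cells with none (10912 against 7946 in the adult pulse).

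**Figure D5:**
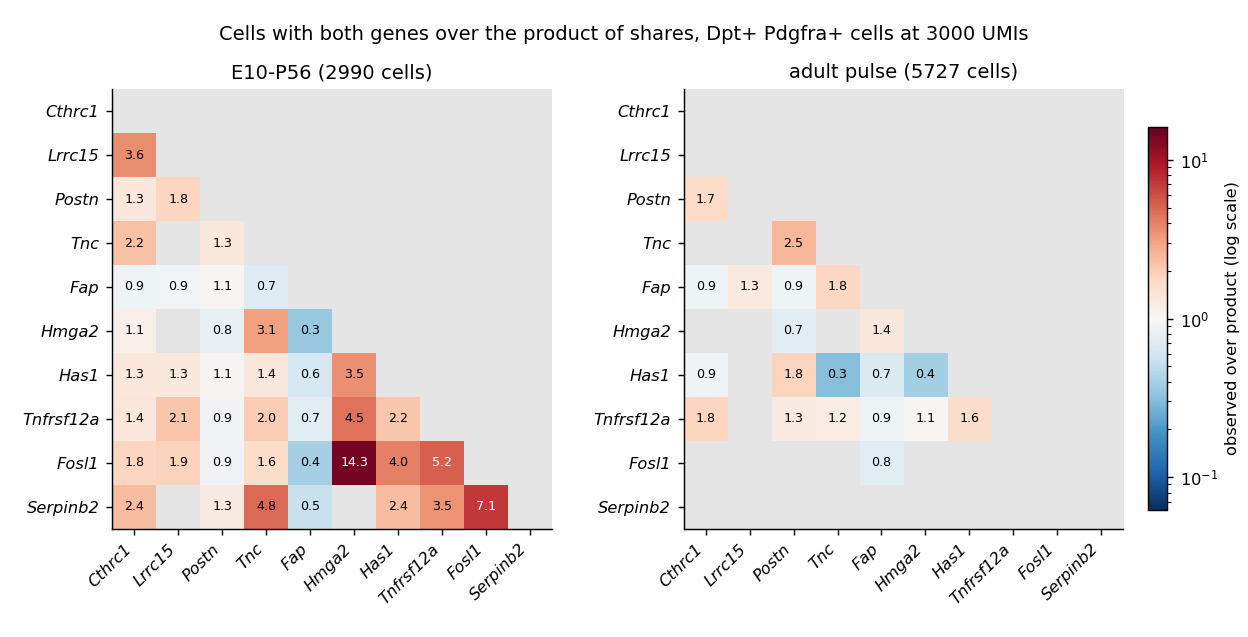
Cells holding both members of a pair, as a ratio to the product of their separate shares (color scale), in Dpt+ Pdgfra+ cells thinned to 3000 UMIs, in each library. Grey marks products under 1 cell. In E10-P56 Hmga2 with Fosl1 stands at 14.3, and pairs with Fap lie between 0.346 and 1.06.

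These sets were also counted over all kept cells with at least 3000 UMIs. *Cthrc1*, *Lrrc15* and *Tnc* were all seen in 63 of 5147 cells of E10-P56 (1.22%) and in 4 of 7900 of the adult pulse. Of the 63, 19 were cycling (30.2%), 17 Dpt+ Pdgfra+ and 12 of no gate. *Fosl1*, *Hmga2* and *Tnfrsf12a* were all seen in 19 cells of E10-P56, 16 of them Dpt+ Pdgfra+ and 0 cycling, and in 0 of 7900 of the adult pulse, which allows up to 0.0380%. *Serpinb2* was seen in 130 cells, 30 of them cycling, and in 0 of 7900.

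Members also differed with markers of fibroblast states, *Pi16*, found in adventitial fibroblasts, and *Col15a1*, found in parenchymal fibroblasts. In Dpt+ Pdgfra+ cells at 3000 UMIs, *Has1* was seen in 18.0% of the 1162 cells with *Pi16* alone and in 7.87% of the 889 with *Col15a1* alone in E10-P56, and in 15% of 2226 and 3.46% of 1532 in the adult pulse. *Postn* followed the same order, 56.6% against 45.9% and 21.8% against 7.18%. *Fosl1* was seen in 5.25% against 0.900% and *Hmga2* in 1.81% against 0.112% (1 cell) in E10-P56, and *Hmga2* in 4.24% of the cells with neither. *Fap* took the reverse order, 25.3% against 34.0% in E10-P56 and 31.6% against 45% in the adult pulse. *Tnc* did too, at 1.72% (1.05 to 2.65) against 4.50% (3.23 to 6.08) and at 0.314% against 0.979%. In E10-P56 *Lrrc15* (0.516% against 1.69%) and *Cthrc1* (21.1% against 24.2%) also did, while *Tnfrsf12a* (12.9% against 9.56%) and *Serpinb2* (3.10% against 1.01%) did not. *Hmga2* stood at 0.404% against 0.653% in the adult pulse. The order of *Has1*, *Postn*, *Fap* and *Tnc* was the same in both libraries, that of *Tnc* in the adult pulse on 7 against 15 cells with overlapping intervals. *Tnfrsf12a* (7.64% against 5.61%) and *Cthrc1* (0.719% against 1.11%) also kept their order in the adult pulse, with overlapping intervals in both libraries. *Fosl1* was seen in 2 against 1 cells there, and in 5.77% of the cells of E10-P56 with neither marker.

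Genes other than the members were compared between Dpt+ Pdgfra+ cells with 3 or more members and cells with none, as counts summed at 3000 UMIs. The members themselves made these groups. The group with 3 or more in the adult pulse was 90 cells, a share not told from background. *Cthrc1* was seen in 0.873% of Dpt+ Pdgfra+ cells there and in 21.9% in E10-P56, so the groups may rest on different members. Which members each group held was not counted. In E10-P56, 3.84% of 9646 features were at least 2-fold higher and 8.07% lower, and in the adult pulse 5.38% and 8.49% of 11031. The genes with the largest ratios in both libraries included chemokines that recruit neutrophils and monocytes, *Cxcl2* with 64.7 in E10-P56 (3 UMIs in the cells with none, interval 21.6 to 318) and 18.2 in the adult pulse, *Ccl2* with 16.7 and 11.2, and *Ccl7* with 11 and 7.93. They also included *Ptx3*, a pentraxin of innate defence (6.65 and 13.3), *Timp1*, an inhibitor of matrix metalloproteinases (7.27 and 4.43), *Adam12*, a metalloproteinase of activated stroma (9.05, and 6.24 with 2 UMIs and an interval of 0.657 to 30.2), and *Col12a1*, a fibril-associated collagen (3.64 and 4.81).

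Of a list of inflammatory fibroblast genes, 12 of 20 compared were at least 2-fold higher and 2 lower in such cells of E10-P56, with a median ratio of 3.69 where all features had 0.910, and 8 of 16 were higher and 3 lower in the adult pulse, with a median of 1.98 where all features had 1 (features with 0 UMIs in a group taken at the bound of 3 counts, or 1). *Cxcl14* (0.357 and 0.218) and *Ccl11* (0.345 and 0.423), chemokines of resting fibroblasts, were lower in both. Of a list of resting fibroblast genes, 0 of 18 were higher and 5 lower in E10-P56, *Smoc2* at 0.151 and *Hmcn2* at 0.186 among them, and 1 was higher and 5 lower in the adult pulse. Of 29 collagen and collagen-processing genes, 5 were higher and 0 lower in each library, among them *P4ha3*, a subunit of collagen prolyl hydroxylase, at 3.11 in E10-P56.

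Genes around each member gave smaller counts. Among genes of the plasminogen system, in which the *Serpinb2* protein acts, 2 of 10 were higher and 0 lower in each library. *Plaur*, the urokinase receptor, was among them at 8.67 and 3.37, the latter on 6 against 50 UMIs (1.18 to 7.87). Short of 2-fold lower were *Plau*, which encodes urokinase, at 0.538 and 0.740, and *Serpine2* at 0.508 and 0.762. Among TGF-beta targets 1 of 16 was higher and 0 lower in the adult pulse, *Tagln*, an actin-binding protein of contractile cells, at 31.6 (18 against 16 UMIs). Among hyaluronan genes 2 of 9 were higher and 2 lower in E10-P56, with *Cd44*, the hyaluronan receptor, at 4.11, *Tnfaip6*, which loads hyaluronan with heavy chains, at 3.55, and *Itih5*, a hyaluronan-binding heavy chain, at 0.423 (287 against 1054 UMIs). *Hyal1*, a hyaluronidase, stood at 0.388 on 4 against 16 UMIs, with an interval of 0.0945 to 1.20, and in the adult pulse *Tnfaip6* alone was higher, at 4.54. Among Fn14 and NF-kB genes 2 of 14 were higher in E10-P56, and 1 was higher and 1 lower in the adult pulse, with *Nfkbia*, the inhibitor that NF-kB itself induces, at 3.72 and 2.24. *Tnfsf12*, which encodes TWEAK, stood at 0.654 in E10-P56. Among genes tied to HMGA proteins 1 of 7 was higher and 1 lower in E10-P56, *Ccnd1*, a cyclin, at 2.13 and *Igf2bp3* at 0.388, and 1 of 10 was higher in the adult pulse, *Myc* at 2.98. Among integrins and syndecans 3 of 9 were higher and 3 lower in E10-P56, and 3 of 12 were higher and 0 lower in the adult pulse, with *Itgb3* at 2.03 and 2.22. Median ratios of these 6 lists lay between 0.922 and 1.24 in E10-P56 and between 1.07 and 1.41 in the adult pulse.

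Some genes that respond to tissue digestion moved with this contrast. Of 21 AP-1 and dissociation genes, 3 were higher for E10-P56 and 5 for the adult pulse, and 0 were lower, with medians of 1.44 and 1.37. *Zfp36* at 2.37 and *Ier3* at 2.30 were among them in E10-P56. *Hspa1a*, *Hspa1b* and *Hspb1*, heat-shock genes of this list, stood at 0.988, 0.878 and 0.757 there. In the adult pulse they stood at 0.878, 0.933 and 0.930. *Dnajb1* stood at 1.45 and 1.41 and *Hsp90aa1* at 1.44 and 0.914 in E10-P56 and the adult pulse. The 8 tenocyte markers summed to 179 against 117 CPM in cells with 3 or more and no members for E10-P56 and to 1844 against 221 CPM for the adult pulse, where *Thbs4* gave 1770 of the 1844, *Tnmd* 9 UMIs and *Scx* 0. The 12 cycling markers summed to 10.0 against 7.45 CPM and 7.41 against 10.0 CPM, the 8 pericyte markers to 111 against 195 CPM and 81.5 against 161 CPM, and the 8 immune markers to 3.09 against 1.49 CPM and 3.70 against 2.77 CPM, with 5 and 7 immune markers at 0 in the cells with 3 or more members. Mitochondrial shares had medians of 2.04% against 2.28% and 2.22% against 2.53%. The part of digestion, of tendon cells or of free RNA in the joint expression was not tested.

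The genes most like each member across Dpt+ Pdgfra+ cells were found by Pearson's r of log values after thinning to 3000 UMIs, over the 10182 genes seen in at least 1% of cells of both libraries. These values share the cells, depth and library and carry no p. *Fap* was most like *Col4a1*, a basement membrane collagen (0.19 for E10-P56 and 0.23 for the adult pulse), followed by *Itih5* and *Col4a2*. *Postn* was most like *C4b* (0.25 and 0.27), followed by *Ccdc80* and *Fn1*. *Has1* was most like *Nfkbia* (0.28 and 0.27), followed by *Tnfaip6* and *Mt2*, and *Tnfrsf12a* like *S100a10* (0.21 and 0.12) and *Ccl2* (0.39 and 0.11). Members too rare in the adult pulse were ranked in E10-P56 alone, a step added after the data had been seen. There *Cthrc1* was most like *Col1a1* (0.40), *Tnc* like *Wisp1* (0.35), *Hmga2* like *Il1rl1* (0.42), *Fosl1* like *Cxcl5* (0.44) and *Serpinb2* like *Il1rl1* (0.32).

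Reads of overlapping genes could be shared at few members. On GRCm38, *Serpinb2* (chr1:107511423-107535478, plus strand) overlaps *Serpinb10* on the same strand, which had 1 and 2 UMIs in kept cells. *Hmga2* (chr10:120361275-120476469, minus strand) holds Mir763, and antisense genes lie at *Hmga2*, at *Tnc* (chr4:63959785-64047015, minus strand) and at *Fosl1* (chr19:5447547-5455946, plus strand), the last *Ccdc85b* with 402 and 660 UMIs. *Cthrc1* (chr15:39076932-39087121, plus strand), *Postn* (chr3:54361109-54391037, plus strand), *Lrrc15* (chr16:30269302-30283256, minus strand), *Fap* (chr2:62500943-62574075, minus strand), *Has1* (chr17:17843323-17855205, minus strand) and *Tnfrsf12a* (chr17:23675445-23677468, minus strand) overlap no annotated gene.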

How the data were processed

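Single-cell RNA-seq of sorted tdTomato+ muscle cells was used, 1 library per marking time. The files deposited by the authors hold raw counts of UMIs for each gene and barcode, made with Cell Ranger (version 5.0.0 in the E10-P56 header, 3.0.2 in that of the adult pulse) on mm10 with tdTomato, CreERT2 and SSM2GFP added, and not normalized. The study's methods left out cycling cells and some other clusters, and these cells were kept here. One gene of a list is not reported here.

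Barcodes under 1500 UMIs or over 10% mitochondrial UMIs were set aside, and the cells left were gated by marker lists for 12 cell types, with 3 markers needed, or 1 UMI each of *Dpt* and *Pdgfra*. Levels are summed UMIs in CPM with exact 95% Poisson intervals, shares carry Clopper-Pearson intervals, and ratios conditional binomial ones, for counting error only. Features with at least 20 UMIs over both groups were compared at a fold of 2, with no test, as each condition was 1 library. Where a group had 0 UMIs, 3 counts took their place in a ratio, which was then held to 1 if it passed it in the other direction. Cells were thinned without replacement to 1500 UMIs for shares and 3000 for joint expression. Members, lists and gates were chosen with earlier results of these data known. Named genes were the members, the 5 most like each, the 10 with the largest lower ratio over both libraries between cells with 3 or more members and none (at least 100 UMIs), and up to 4 a list by largest and smallest ratio. Gene lists numbered 10. Scrublet in scanpy 1.11.5 marked 0.230% and 0.0350% of cells, too few to be of use, so doublets were not removed, and an alternative left out the 5% with the highest scores. Python 3.11.15, numpy 2.4.6, scipy 1.17.1 and pandas 2.3.3 were used, and the steps were tested on simulated data. Promoters came from RefSeq (GRCm38.p6) and gene positions from GENCODE on GRCm38. Alternatives covered the filters, gates, thinning depth and seed, doublets and the genes behind CPM.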

Additional observations from a re-analysis of the deposited data

Results flagged for a closer look

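Barcodes left out by the filters also held members. Summed over the 10 members, the level was 898 CPM in the 1310 barcodes under the UMI minimum and 491 CPM in the 839 over the mitochondrial limit in E10-P56, against 1605 CPM in kept cells. In the adult pulse it was 503 CPM in the 465 barcodes under the minimum and 1339 CPM in the 163 over the mitochondrial limit, against 565 CPM in kept cells. All 4 values lay above what a count of 0 allows, and *Postn* gave the most UMIs in each. These barcodes enter no comparison above.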

How the results depend on the processing

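No paired analysis was possible because each condition was 1 library and no result comes from a test. Over these alternatives no member's ratio past 2-fold changed direction, between the libraries in Dpt+ Pdgfra+ cells or between cycling and Dpt+ Pdgfra+ cells of a library. Changes of direction were not counted for ratios short of 2-fold. Under each alternative 8 of 10 members were at least 2-fold higher in Dpt+ Pdgfra+ cells of E10-P56. Of 106 values recomputed for the counts and shares, 12 moved. The share of Dpt+ Pdgfra+ cells with 3 or more members was 6.19% for E10-P56 and 0.422% for the adult pulse at 1500 UMIs, 25% and 3.33% at 5000 UMIs, and 10.1% in E10-P56 with the *Dpt* and *Pdgfra* gate applied at equal depth, so it depends on the depth chosen. That gate also gave 8 members at least 2-fold higher in cycling cells of E10-P56 in place of 5. Pairs past 2-fold in the adult pulse numbered 3 at 1500 UMIs, 3 at 5000 UMIs, 3 with another seed, 2 with gates of 4 markers, 2 with a gate of 2 UMIs, and 2 with cells of another gate included, an alternative chosen after seeing the data, in place of 1. In cycling cells of E10-P56, *Hmga2* passed 2-fold with gates of 4 markers (2.02), and *Postn* fell short with cells of another gate included (1.93). A limit of 5% mitochondrial UMIs changed the class with the highest level for 3 of 10 members of E10-P56. Counts limit the ratios of *Serpinb2*, *Lrrc15* and *Fosl1*, which had 1, 18 and 33 UMIs in Dpt+ Pdgfra+ cells of the adult pulse. Free RNA, doublets and the digestion of the tissue were measured only as far as the values given above, and 1 library per condition leaves no measure of spread between animals.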
